A study of Mus musculus with 10 samples.

Results

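Expression of 7 genes tied to the sodium channel NaV1.7 or to pain-sensing neurons was followed in Neuro2a cells in which Scn9a, the NaV1.7 gene, had been lowered. The genes are Fgf13, Nedd4l, Dpysl2, Penk, P2rx3, Asic1 and Prdm12. They were chosen by name and matched by Ensembl identifier, and they make up 7 of the 55401 gene identifiers listed for each library. Dpysl2, P2rx3 and Asic1 were expressed in every library, whereas Penk, Fgf13, Prdm12 and Nedd4l were at or near 0 reads. Of the 3 expressed genes, P2rx3 alone was called changed by edgeR (adjusted p under 0.05), and only in the zinc-finger comparison. It stood at 36.3 ± 3.13 CPM (reads per 1000000 gene reads) in ZF-SCN9A cells, against 24.2 ± 0.738 CPM in mCherry cells (SD, n = 2 each). That call is sensitive to 1 library, to the software and to the read-counting column, as given beside it.

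Neuro2a is an established mouse neuroblastoma line, labelled wild-type here, grown in culture and transiently transfected with plasmids using Lipofectamine 2000, at 0.5 µg of each plasmid. All groups shared this treatment, with a media change after 24 h and an incubation of 72 h. Cells of the dCas9-SCN9A group (3 libraries) received a nuclease-dead Cas9 directed at SCN9A, and those of the dCas9-empty group (3 libraries) its control. The sources used here do not describe the content of that control, but its libraries held reads of the plasmid entries named dCCas9 and dNCas9. Cells of the ZF-SCN9A group (2 libraries) received a zinc-finger protein directed at SCN9A, and those of the mCherry group (2 libraries) a red fluorescent protein, taken here as the zinc-finger control. The sources used here also leave out the promoters that drive the plasmids, the share of cells that took them up and the sites bound. Nothing in the labels says that replicates came from separate cultures, so p-values measure the spread among these samples only, and that spread may be technical. In bulk RNA, fewer cells of a type and less RNA per cell cannot be told apart.

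NaV1.7 opens near the resting potential of nociceptors, the sensory neurons that detect harmful stimuli, and amplifies small depolarisations until the cell fires. Proteins that bind or modify it set how much channel reaches the membrane: CRMP2 (encoded by Dpysl2) aids its surface delivery, NEDD4-2 (Nedd4l) is a ubiquitin ligase that promotes its removal, and FGF13 (Fgf13) binds the tail of sodium channels and holds them active. P2X3 (P2rx3) and ASIC1 (Asic1) are ion channels gated by ATP and by protons, proenkephalin (Penk) is cut into opioid peptides and is known to be raised in sensory neurons of mice that lack NaV1.7, and PRDM12 (Prdm12) is a nuclear regulator needed for nociceptors to form.

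The dCas9-SCN9A libraries held 15.4 to 16.4 M (mega) gene counts and the dCas9-empty libraries 17.8 to 19.0 M. Depth was lower in the zinc-finger arm, at 4.41 and 6.30 M in ZF-SCN9A and 6.59 and 7.48 M in mCherry. Scn9a stood at 31.0, 30.8 and 28.2 CPM in dCas9-SCN9A libraries, against 75.3, 81.1 and 78.3 CPM in dCas9-empty libraries. In ZF-SCN9A libraries Scn9a had 18.8 and 15.7 CPM, against 62.4 and 56.3 CPM in mCherry libraries. The groups did not overlap in either arm, and Scn9a was lower in the group labelled as targeted both times. Non-overlap alone was seen for 15.6% of tested genes in the dCas9 arm and 45.6% in the zinc-finger arm. Across the lineage markers of neuroblastoma and sympathetic neurons, 14 of 15 had at least 10 reads in every library. Their summed level was 4573 to 5056 CPM in dCas9-SCN9A and 4609 to 4882 CPM in dCas9-empty, and 3698 to 3723 CPM in ZF-SCN9A and 3705 to 3762 CPM in mCherry.

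**Figure D1:**
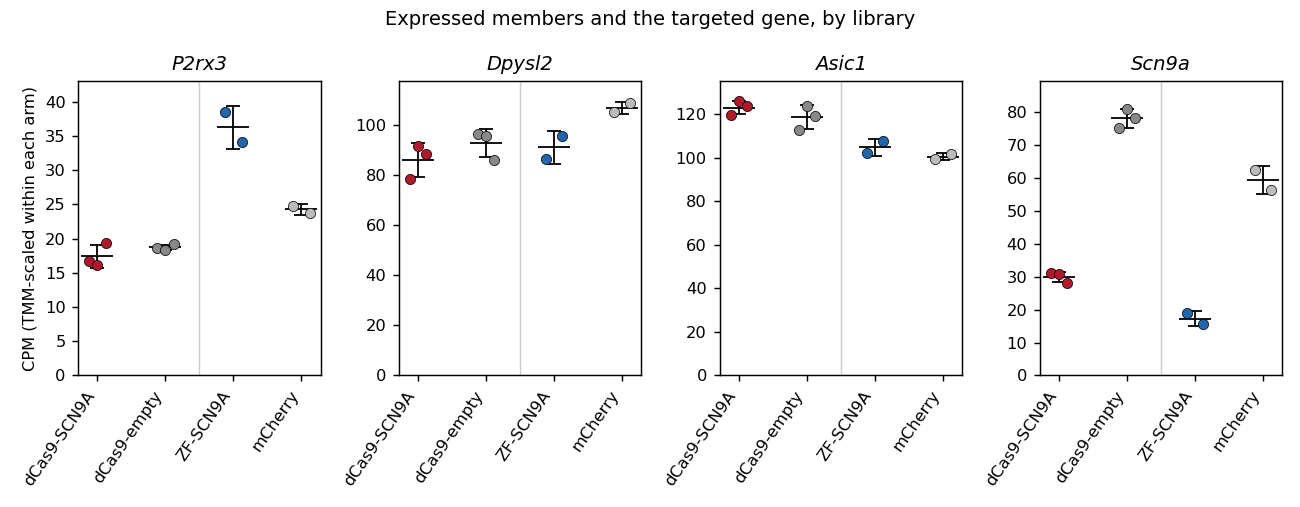
CPM of P2rx3, Dpysl2, Asic1 and the targeted gene Scn9a in each library (points), with the group mean (horizontal bar) and SD (error bar); CPM are scaled within each arm, and the grey line parts the arms. For P2rx3 both ZF-SCN9A libraries, at 38.5 and 34.0 CPM, lie above both mCherry libraries, at 24.8 and 23.7 CPM, while the dCas9 groups overlap. In the zinc-finger arm the groups of 45.6% of tested genes do not overlap.

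Of the 7 genes, 3 passed edgeR's filter on low counts in both arms and were tested, and 4 did not pass and have no test. A gene is called changed at an adjusted p under 0.05 from the quasi-likelihood test of edgeR, adjusted by Benjamini-Hochberg over all tested genes. With dCas9, 0 of the 3 were called, where 0.041% of the 14628 tested genes were (0.0342% higher and 0.00684% lower). None of the 3 had an unadjusted p under 0.05 there either, where 10.1% of genes did, and DESeq2 and limma-voom called none of those they gave an adjusted p. These dCas9 shares come from the fit without a replicate block. A block raised the number of genes called, as given with the other settings, but called none of the 3. With the zinc finger, 1 of the 3 was called, and it was higher, where 4.72% of the 12899 tested genes were called and 1.95% were called higher. For the difference between the changes, dCas9 minus zinc finger, 1 of the 3 was called, and it was negative, where 0.907% of the 15766 tested genes were called, 0.647% positive and 0.26% negative. Most zinc-finger p-values rest on spread shared across genes, because the prior degrees of freedom were infinite for 88.0% of genes and only 2 residual degrees of freedom remained.

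Among the channel partners, Dpysl2 (ENSMUSG00000022048) was well expressed. It lies on the minus strand at chr14:66802864-66868688 of GRCm38. It stood at 78.3, 91.6 and 88.3 CPM in dCas9-SCN9A libraries, against 96.4, 95.7 and 86.2 CPM in dCas9-empty libraries. These groups overlapped, whereas the groups of 15.6% of tested genes did not in that arm. The dCas9 log2 fold change was -0.11 ± 0.07 (SE), with a 95% interval from -0.25 to 0.03 and an adjusted p of 0.623 in edgeR. In the zinc-finger arm Dpysl2 stood at 86.3 and 95.8 CPM in ZF-SCN9A libraries, against 105 and 109 CPM in mCherry libraries. Both ZF-SCN9A libraries were lower than both mCherry libraries, a separation that 45.6% of tested genes showed in that arm. The log2 fold change was -0.24 ± 0.09, with an interval from -0.41 to -0.07. Its unadjusted p of 0.006 did not survive adjustment (adjusted p 0.0889, edgeR), so it was not called. The changes in the 2 arms differed by 0.14 ± 0.11 on the log2 scale (dCas9 minus zinc finger, interval -0.09 to 0.36, edgeR adjusted p 0.706).

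CRMP2 belongs to a family of cytosolic phosphoproteins that guide axon growth, and Dpysl2 was not its main member in these cells. Per kilobase of exon, as TPM (transcripts per 1000000 transcripts), the median level over the 10 libraries was 890 for Dpysl3, 249 for Crmp1, 68.6 for Dpysl2 and 46.4 for Dpysl5, while Dpysl4 had 0 to 3 reads a library. A list of the CRMP family, its kinases and its SUMO and endocytic partners held 12 tested genes. Of these, 0 were called in either arm, where 0.041% of all tested genes were with dCas9 and 4.72% with the zinc finger. At an unadjusted p under 0.05 there were 2 with dCas9 and 4 with the zinc finger, where 10.1% and 16.2% of all tested genes were, and the median log2 fold change was -0.08 with dCas9 and -0.04 with the zinc finger. DESeq2 and the fit with a replicate block called Gsk3b, a kinase of CRMP2, with dCas9, where edgeR gave -0.20 ± 0.05 and an adjusted p of 0.21. With the zinc finger edgeR gave Gsk3b -0.16 ± 0.07 (interval -0.29 to -0.03, adjusted p 0.179), so it was lower there too but not called.

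Nedd4l (ENSMUSG00000024589, chr18:64887705-65217828, plus strand) had 24 reads among 126.6 M gene counts. In dCas9-SCN9A it had 10, 0 and 0 reads in replicates 1 to 3, and in dCas9-empty likewise 10, 0 and 0. Each ZF-SCN9A and each mCherry library had 1 read. Reads above 1 were therefore found in replicate 1 of both dCas9 groups, at 10 each, and in no other library. Why these libraries held them was not tested. Of its exon bases, 1.57% are shared with A330084C13Rik on the opposite strand, and the counting did not use strand.

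Those same 2 libraries held other transcripts that the rest of the dCas9 arm lacked. In all, 22 genes had at least 5 reads in replicate 1 of both dCas9 groups and at most 1 read in each of the other 4 dCas9 libraries, a criterion set after the values had been seen. The same count for replicate 2 was 0 and for replicate 3 was 1. Among the 22 were Col3a1, a fibrillar collagen, with 76 reads in dCas9-SCN9A and 67 in dCas9-empty, and Otx2, a forebrain and eye transcription factor, with 19 in dCas9-SCN9A and 15 in dCas9-empty. Col1a2, another fibrillar collagen, had 53 reads in dCas9-SCN9A and 40 in dCas9-empty, and 1 to 2 in the other 4 libraries. The summed CPM of 6 fibroblast markers was 17.2 in replicate 1 of dCas9-SCN9A and 16.1 in replicate 1 of dCas9-empty, against 8.12 to 10.6 in the other dCas9 libraries, though 15.7 to 21.7 in ZF-SCN9A and 13.7 to 18.5 in mCherry. At their highest, the collagens Col1a1 and Col1a2 gave 5.56 and 3.43 CPM of this in dCas9-SCN9A, and 4.39 and 2.25 CPM in dCas9-empty. Pdgfra ranged only from 5.39 to 6.63 CPM in dCas9-SCN9A and from 6.78 to 8.34 CPM in dCas9-empty. Dcn had 21 to 36 reads, and Lum and Thy1 0 to 3, in these libraries. The higher sum is thus mainly collagen and was not shared by the whole list. Whether these transcripts and the Nedd4l reads share a source was not tested.

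**Figure D2:**
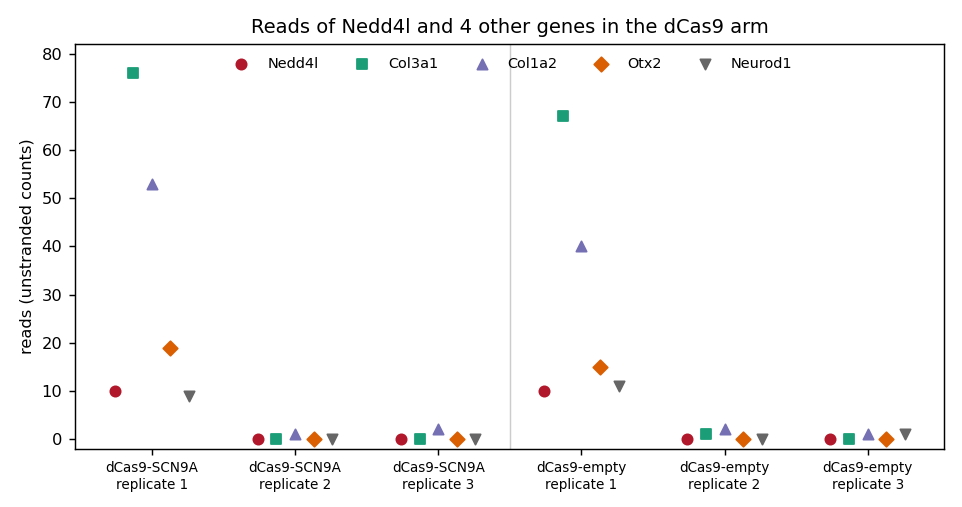
Unstranded reads of Nedd4l, Col3a1, Col1a2, Otx2 and Neurod1 in the 6 libraries of the dCas9 arm, 1 point per gene and library, with dCas9-SCN9A on the left and dCas9-empty on the right. Nedd4l has 10 reads in replicate 1 of each group and 0 in the other 4 libraries, where the other 4 genes have 0 to 2.

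Other ligases of the NEDD4 family were present where Nedd4l was not. Median TPM over the 10 libraries was 95.5 for Nedd4, 49.4 for Smurf1, 41.3 for Smurf2, 31.2 for Wwp2, 20.4 for Itch and 12.4 for Wwp1. The adaptors that recruit and activate these ligases were present too, at 84.2 TPM for Ndfip1 and 15.8 TPM for Ndfip2. Of 9 tested genes in the list of the family and its regulators, 0 were called with dCas9, where 0.041% of all tested genes were. At an unadjusted p under 0.05 there were 3, where 10.1% of all tested genes were. With the zinc finger 1, Sgk1, was called lower, where 2.78% of all tested genes were. Sgk1 encodes a kinase that phosphorylates NEDD4-2 and so frees its targets from it. It stood at 69.5 and 66.3 CPM in ZF-SCN9A libraries, against 110 and 83.4 CPM in mCherry libraries. The groups did not overlap, as for 45.6% of tested genes in the zinc-finger arm, and the 2 mCherry libraries were far apart. Sgk1 fell, with a log2 fold change of -0.50 ± 0.09 (edgeR adjusted p 1.02e-05), but without mCherry replicate 1 the change was -0.29 with an adjusted p of 0.173. DESeq2 gave an adjusted p of 0.0845. With dCas9 Sgk1 was 0.01 ± 0.06 (adjusted p 0.971).

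Fgf13 (ENSMUSG00000031137, chrX:59062145-59568071, minus strand) had 1 read in all 10 libraries together, in dCas9-SCN9A replicate 1. Its relatives in the fibroblast growth factor homologous factor family, which bind sodium channels in the same way, were low. Median TPM was 4.70 for Fgf11, 2.35 for Fgf14 and 0.385 for Fgf12. Fgf11 had 38 and 20 reads in ZF-SCN9A libraries, against 13 and 19 in mCherry libraries, and was called higher with the zinc finger at a log2 fold change of 1.22 ± 0.39 (edgeR adjusted p 0.0434). On these few reads the call was lost in 10 of the 13 alternative settings that gave an adjusted p, leaving out any library of the arm included, with adjusted p up to 0.55. With dCas9 Fgf11 was -0.01 ± 0.21 (adjusted p 0.996).

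Of the other proteins reported to bind or modify NaV1.7, 13 of 15 listed were tested. With dCas9 0 were called by edgeR, where 0.041% of all tested genes were. At an unadjusted p under 0.05 there were 2, where 10.1% of all tested genes were. Limma-voom called none, nor did DESeq2 among those it gave an adjusted p.

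Among the sensory channels, P2rx3 (ENSMUSG00000027071, chr2:84998583-85037462, minus strand, 18.4 Mb from Scn9a on the same chromosome) had 2570 reads over the 10 libraries. It stood at 38.5 and 34.0 CPM in ZF-SCN9A libraries, from 243 and 150 reads, against 24.8 and 23.7 CPM in mCherry libraries, from 162 and 176 reads. Both ZF-SCN9A libraries were higher than both mCherry libraries, in an arm where the groups of 45.6% of tested genes did not overlap. The log2 fold change was 0.59 ± 0.14, with a 95% interval from 0.32 to 0.87 and an adjusted p of 0.00155 in edgeR, which puts the level in ZF-SCN9A at 151% of that in mCherry (interval 124% to 182%). An exact two-sided permutation test gave p = 0.333, the smallest that 2 libraries against 2 allow. The call was lost with DESeq2 (0.58, adjusted p 0.326), with a strand column (0.49, adjusted p 0.0894) and without ZF-SCN9A replicate 1 (0.49, adjusted p 0.217). Limma-voom gave 0.59 with an adjusted p of 0.00138.

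With dCas9 P2rx3 was not called. It stood at 16.8, 16.2 and 19.3 CPM in dCas9-SCN9A libraries, against 18.6, 18.3 and 19.2 CPM in dCas9-empty libraries. The groups overlapped, dCas9-SCN9A replicate 3 being the highest of all 6. The log2 fold change was -0.10 ± 0.09, with an interval from -0.30 to 0.09 and an adjusted p of 0.764 in edgeR (exact permutation p = 0.4, where 0.1 is the smallest possible). The dCas9 change minus the zinc-finger change was -0.69 ± 0.16 (interval -1.02 to -0.35, edgeR adjusted p 0.0281). That call held with limma-voom (adjusted p 0.0436) and was lost without dCas9-SCN9A replicate 1 (0.0608), mCherry replicate 1 (0.105), mCherry replicate 2 (0.109) or ZF-SCN9A replicate 1 (0.285).

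Scn9a itself fell in both arms. Its log2 fold change was -1.38 ± 0.07 with dCas9 and -1.76 ± 0.14 with the zinc finger (edgeR adjusted p 2.24e-09 and 1.71e-34), and the dCas9 change minus the zinc-finger change was 0.39 ± 0.15 with an adjusted p of 0.278. The arms also differ in depth, in number of libraries and in the kind of control plasmid, and these cannot be told apart from the kind of repressor.

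**Figure D3:**
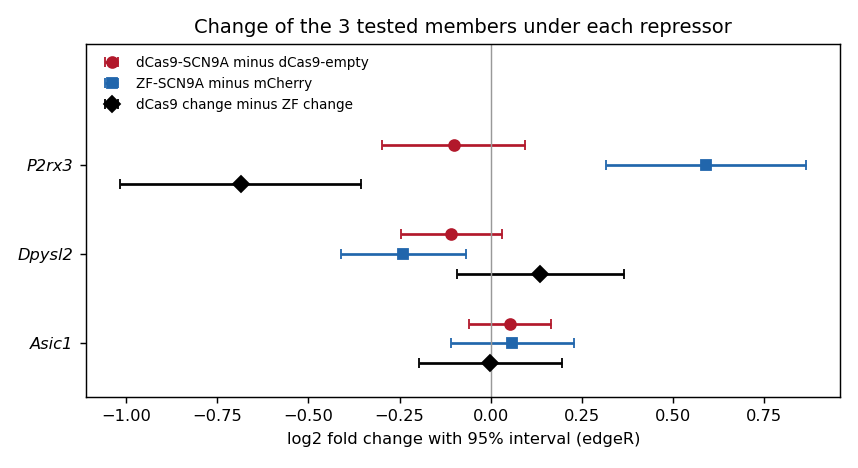
Log2 fold change of P2rx3, Dpysl2 and Asic1 with its 95% interval from edgeR: dCas9-SCN9A minus dCas9-empty (red circles), ZF-SCN9A minus mCherry (blue squares) and the dCas9 change minus the zinc-finger change (black diamonds). The P2rx3 interval lies above 0 with the zinc finger (0.32 to 0.87) and below 0 for the difference (-1.02 to -0.35), while all 3 intervals of Asic1 include 0.

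The 5′ end of P2rx3 limits these counts. Of its exon bases, 51 (1.83%) are shared with Ssrp1, a histone chaperone gene on the opposite strand with a median of 247 TPM, and unstranded counting sets aside reads that touch both genes. Both strand columns together assigned P2rx3 4392 reads, 1.71 times the 2570 of the unstranded column, where the ratio was 1.00 for Dpysl2 and Asic1 and 1.04 for Scn9a. The strand columns added 1822 reads to P2rx3 and 1820 to Ssrp1, so they may count the same reads under both genes. Which gene's RNA these reads came from cannot be told apart, so the P2rx3 values from a strand column may include Ssrp1 RNA. The reads found in the strand columns alone amounted to 11.9 and 10.2 CPM in ZF-SCN9A libraries, against 13.5 and 8.36 CPM in mCherry libraries. They came to 15.7, 13.6 and 15.7 CPM in dCas9-SCN9A libraries, against 16.7, 15.5 and 14.4 CPM in dCas9-empty libraries. These groups overlapped in both arms. Ssrp1 changed by 0.01 with the zinc finger (adjusted p 0.981) and by -0.02 with dCas9 (adjusted p 0.952).

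P2X3 assembles with P2X2 in sensory neurons, and of the 7 P2X receptor genes 3 were clearly expressed. Median TPM over the 10 libraries was 31.1 for P2rx7, 23.4 for P2rx3 and 17.6 for P2rx4, and 1.15 for P2rx1. P2rx2 had 2 to 11 reads a library. With the zinc finger 3 P2X genes were tested and 2 were called higher, P2rx3 and P2rx4, where 1.95% of all tested genes were. P2rx3 was itself chosen by name, and so few genes give no result about the family. P2rx4 stood at 46.1 and 39.7 CPM in ZF-SCN9A libraries, against 25.4 and 35.3 CPM in mCherry libraries. The groups did not overlap, as for 45.6% of tested genes in the zinc-finger arm, but the mCherry libraries differed by more than the ZF-SCN9A ones. Its log2 fold change was 0.50 ± 0.13 (edgeR adjusted p 0.00491), lost with DESeq2 (0.595), with a strand column (0.36) and without mCherry replicate 1 (0.29, adjusted p 0.434) or ZF-SCN9A replicate 1 (0.366). P2rx7 was -0.06 ± 0.11 (adjusted p 0.87). With dCas9 4 P2X genes were tested and 0 called, where 0.041% of all tested genes were. None had an unadjusted p under 0.05, where 10.1% of all tested genes did. Limma-voom called none, nor did DESeq2, which gave P2rx3 no adjusted p.

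Asic1 (ENSMUSG00000023017, chr15:99670368-99701130, plus strand) was the most evenly expressed of the 3. It stood at 120, 126 and 124 CPM in dCas9-SCN9A libraries, against 113, 124 and 119 CPM in dCas9-empty libraries. In the zinc-finger arm it stood at 102 and 108 CPM in ZF-SCN9A libraries, against 99.2 and 101 CPM in mCherry libraries. The dCas9 groups overlapped, and both ZF-SCN9A libraries lay slightly above both mCherry libraries. In the zinc-finger arm the groups of 45.6% of tested genes did not overlap. The log2 fold change was 0.05 ± 0.05 with dCas9 (interval -0.06 to 0.17, edgeR adjusted p 0.791) and 0.06 ± 0.09 with the zinc finger (interval -0.11 to 0.23, adjusted p 0.813). As levels, the intervals run from 95.9% to 112% of dCas9-empty and from 92.8% to 117% of mCherry. The changes differed by -0.00048 on the log2 scale (interval -0.20 to 0.20).

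ASIC1 is the main proton-gated channel of neurons, and Asic1 led its family here. Median TPM was 68.7 for Asic1, 19.5 for Asic4 and 2.85 for Asic3, the sensory-neuron member, while Asic2 had 0 to 1 read a library. Of Asic4's exon bases, 18.1% are shared with Gm37264 on the opposite strand. Of 3 ASIC genes tested in each arm 0 were called, where 0.041% of tested genes were with dCas9 and 4.72% with the zinc finger. EdgeR gave none an unadjusted p under 0.05, where 10.1% and 16.2% of all tested genes had one. Limma-voom called none, nor did DESeq2 among those it gave an adjusted p.

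**Figure D4:**
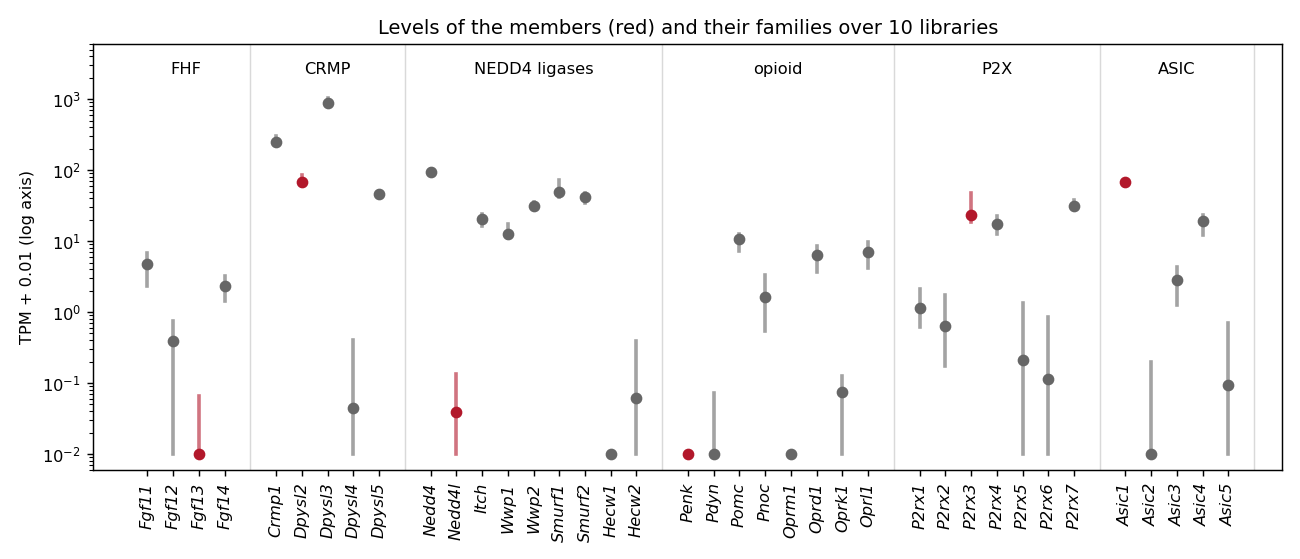
TPM + 0.01 (log axis) of the 6 gene families with a chosen member, as the median (point) and the full range (line) over the 10 libraries, the chosen genes in red. Asic1 (68.7 TPM) leads its family and P2rx3 (23.4 TPM) lies near P2rx7 and P2rx4, whereas Fgf13, Nedd4l and Penk lie near the bottom of theirs.

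Set against one another per kilobase of exon, the 3 expressed genes ranked as follows. In dCas9-SCN9A, Asic1 averaged 71.6 ± 1.10 TPM, Dpysl2 63.6 ± 3.98 TPM and P2rx3 20.9 ± 2.40 TPM (SD, n = 3), and no neighbours overlapped. In dCas9-empty, Asic1 at 69.9 ± 2.93 TPM and Dpysl2 at 69.4 ± 3.91 TPM overlapped and P2rx3 at 22.7 ± 0.683 TPM lay below. In ZF-SCN9A, Dpysl2 averaged 70.2 ± 5.62 TPM, Asic1 63.6 ± 2.75 TPM and P2rx3 45.3 ± 3.62 TPM (n = 2), again with no overlap. In mCherry the same order held without overlap, at 83.3 ± 2.42, 61.6 ± 1.37 and 30.6 ± 0.742 TPM. The order of Dpysl2 and Asic1 depends on the length used: over the 10 libraries Dpysl2 averaged 70.6 TPM and Asic1 67.5 TPM with all merged exons, but 53.6 and 71.5 TPM with the longest transcript. Of 15751 genes that passed the filter in the fit of all 10 libraries, 82.5% had a lower median TPM than Asic1, 82.4% than Dpysl2 and 57.3% than P2rx3.

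Penk (ENSMUSG00000045573, chr4:4133531-4138819, minus strand) had 0 reads in all 10 libraries. A count of 0 among 126.6 M gene counts allows up to 3 reads, or 0.0237 CPM, over the series, and 0.158 to 0.680 CPM in a single library, for counting error only. Of the Penk exon bases, 14.3% are shared with A830012C17Rik on the opposite strand, but both strand columns also held 0 Penk reads in every library. No Penk transcript was therefore detectable at this depth with or without lowered Scn9a. Other opioid genes were present at low levels, with median TPM of 10.5 for Pomc, 7.12 for the nociceptin receptor gene Oprl1, 6.47 for the δ receptor gene Oprd1 and 1.60 for the nociceptin precursor gene Pnoc. Oprm1, which encodes the μ receptor, had 0 reads in all libraries, and Pdyn had 0 to 1 a library. Of 4 opioid genes tested in each arm 0 were called by edgeR, where 0.041% of tested genes were with dCas9 and 4.72% with the zinc finger. At an unadjusted p under 0.05 there were 2 with dCas9 and 0 with the zinc finger, where 10.1% and 16.2% of all tested genes were. Genes that cut and finish neuropeptides were partly present, with Cpe at 283 TPM and the convertase inhibitor gene Pcsk1n at 251 TPM, but the convertase gene Pcsk1 had 0 to 4 reads a library. Of 6 tested genes for processing and breakdown of enkephalin, 0 were called by edgeR in either arm. At an unadjusted p under 0.05 there were 1 with dCas9 and 2 with the zinc finger, again beside 10.1% and 16.2% of all tested genes. DESeq2 and the fit with a replicate block called Lnpep, a peptidase gene, with dCas9, where edgeR gave -0.29 ± 0.06 and an adjusted p of 0.0958. Nfat5, a transcription factor gene, stood at 56.8 TPM and had a log2 fold change of -0.18 ± 0.07 with dCas9 and -0.19 ± 0.07 with the zinc finger (edgeR adjusted p 0.414 and 0.0661). Ceacam10, listed beside it, had 0 to 2 reads a library.

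Prdm12 (ENSMUSG00000079466, chr2:31640037-31655795, plus strand, 34.8 Mb from Scn9a) had 3 reads, all in mCherry replicate 1. With 0 to 3 reads a library it could not be told from 0 at this depth. Of its exon bases, 8.09% are shared with Gm13425 on the opposite strand. The strand columns held 2 and 1 Prdm12 reads in mCherry replicate 1 and 0 in every other library. The promoters of Prdm12 and Asic1 are shown because these genes had opposite levels, 0 in 9 of 10 libraries against 68.7 TPM. Both are 300 bases, 250 before and 50 after the gene start, plus strand, from RefSeq on GRCm38.p6, with each CG pair, the letters that DNA methylation acts on, in capitals. The RefSeq start used for Asic1 lies inside the span that GENCODE gives the gene.
Prdm12 (chr2:31639787-31640086): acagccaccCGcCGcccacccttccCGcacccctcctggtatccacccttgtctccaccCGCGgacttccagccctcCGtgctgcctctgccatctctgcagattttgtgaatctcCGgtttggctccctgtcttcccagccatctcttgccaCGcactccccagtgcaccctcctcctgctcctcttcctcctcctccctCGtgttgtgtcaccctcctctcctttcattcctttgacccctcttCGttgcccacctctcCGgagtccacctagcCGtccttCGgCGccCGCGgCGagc
Asic1 (chr15:99691974-99692273): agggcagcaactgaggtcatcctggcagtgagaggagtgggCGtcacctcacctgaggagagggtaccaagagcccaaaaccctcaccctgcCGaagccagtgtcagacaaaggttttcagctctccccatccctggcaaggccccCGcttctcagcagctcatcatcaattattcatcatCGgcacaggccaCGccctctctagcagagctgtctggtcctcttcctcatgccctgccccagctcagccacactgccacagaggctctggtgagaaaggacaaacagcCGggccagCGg

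The Prdm12 promoter holds 17 CG pairs and that of Asic1 holds 7, where the median of 32851 mouse promoters of this length is 7. At least 17 CG pairs occur in 31.4% of promoters and at least 7 in 52.1%. Among the 25113 promoters whose gene symbol is in the GENCODE annotation, 82.6% of those with at least 17 belong to genes that passed the count filter in the dCas9 arm, against 22.2% of those with 7 or fewer. Prdm12 did not pass that filter and Asic1 did, the less common outcome in each class. The class limits are the CG counts of these same genes, picked for their opposite levels, so this is a description only. Whether the Asic1 reads come from transcripts that start in this window was not tested. The letters are a description of these windows and carry no measure of methylation.

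PRDM12 acts with the histone methyltransferases encoded by Ehmt2 and Ehmt1, and both were expressed, at 128 and 48.0 TPM. Neither was called in either arm, where 0.041% of tested genes were with dCas9 and 4.72% with the zinc finger. Their unadjusted p was above 0.05 in all 4 edgeR tests. Limma-voom called neither gene, nor did DESeq2 where it gave an adjusted p. Some transcription factors and receptors that mark developing sensory or autonomic neurons were expressed without Prdm12. Others of the same list were not: Runx1 had 0 to 6 reads a library, Neurog1 0 to 2 and Neurog2 1 to 6, and none was tested in either arm. Median TPM was 765 for Ret, the receptor for glial-derived neurotrophic factors, 50.2 for both Isl1 and Tlx3, 12.8 for Pou4f1 and 5.58 for Drgx. Of the channel, receptor and peptide genes in the same list, Scn10a, Scn11a, Trpv1, Trpa1, Calca, Tac1, Mrgprd and Piezo2 had 0 to 2 reads a library, unlike P2rx3, Asic1 and Scn9a. Neuro2a thus held part of the nociceptor identity list, 8 of whose 20 genes were tested in each arm.

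In that list 0 genes were called with dCas9, where 0.041% of all tested genes were. None had an unadjusted p under 0.05, where 10.1% of all tested genes did. With the zinc finger 1 was called higher and 1 lower, where 1.95% and 2.78% of all tested genes were. Ret stood at 1112 and 1141 CPM in ZF-SCN9A libraries, against 869 and 949 CPM in mCherry libraries. Both ZF-SCN9A libraries were higher, in an arm where the groups of 45.6% of tested genes did not overlap. Ret rose by 0.31 ± 0.06 on the log2 scale (edgeR adjusted p 3.72e-05). Ret is the only gene of the lists that DESeq2 called in this arm, and its edgeR call was lost only without ZF-SCN9A replicate 2 (0.29, adjusted p 0.0591). With dCas9 Ret was -0.11 ± 0.07 (adjusted p 0.632), and the changes differed by -0.42 ± 0.10 (adjusted p 0.0261). Isl1 stood at 58.7 and 48.1 CPM in ZF-SCN9A libraries, against 76.0 and 67.3 CPM in mCherry libraries. It fell, with a log2 fold change of -0.41 ± 0.10 (edgeR adjusted p 0.00474), a call lost with DESeq2 (0.387), a strand column (0.135) and without mCherry replicate 1 (0.2) or ZF-SCN9A replicate 2 (0.351).

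Over the 98 genes of the 11 lists, which include the 7 genes, 65 were tested with dCas9. Of these, 0 were called, where 0.041% of all tested genes were. At an unadjusted p under 0.05 there were 11, where 10.1% of all tested genes were. DESeq2 called 2 of the 41 list genes it gave an adjusted p, and limma-voom called 0. The median log2 fold change of the 65 was -0.04, where that of all tested genes was 0.0054. With the zinc finger 63 were tested, 4 were higher (P2rx3, P2rx4, Ret and Fgf11) and 3 lower (Sgk1 and Isl1 among them), where 1.95% and 2.78% of all tested genes were. Their median was -0.02, against 0.0017 for all tested genes. DESeq2 called 1 of these genes and limma-voom 5. The 7 calls fell in 5 lists and had both signs, with 2 each among the P2X receptors and the nociceptor identity genes.

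By the closeness of their profiles over the 10 libraries, each gene being centred within its arm, the genes most like P2rx3 were Crispld2 and Smad6, with root mean square differences of 0.0644 and 0.0668 on the log2 scale, where the median of 12832 genes was 0.232. Neither was called with the zinc finger, at log2 fold changes of 0.53 and 0.48 (edgeR adjusted p 0.0956 and 0.143). Nearest to Dpysl2 were Acss2 at 0.0368 and Fbxo2 at 0.0437, where the median was 0.159. Nearest to Asic1 were Xbp1 at 0.0275 and Rnf181 at 0.0282, where the median was 0.123.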

How the data were processed

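RNA was sequenced from 10 Neuro2a libraries. The authors deposited raw counts of reads per gene for each library, unnormalised, with 1 unstranded and 2 strand columns. The tools named in the submitters' processing notes are STAR 2.7.3a, bcl2fastq 2.20 and DESeq2, on GRCm38. The sources used here give neither the annotation release nor the counting settings. The strand columns held nearly equal reads, so unstranded counts were used, and a gene cannot be told from one overlapping it on the other strand. Entries that name no gene held 27.9% of reads in dCas9-SCN9A, 26.1% in dCas9-empty, 27.8% in ZF-SCN9A and 25.8% in mCherry on average, and were left out, as were 4 plasmid entries. Of 55401 identifiers, 55141 were in GENCODE M21, which gave symbols, coordinates and lengths.

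Each repressor was fitted against its control in edgeR 4.0.16 (limma 3.58.1, R 4.3.3): quasi-likelihood test, TMM scaling, filter on low counts by group, robust fit, two-sided, Benjamini-Hochberg over all tested genes. The difference contrast used all 10 libraries. SE and 95% intervals come from the fits. CPM are TMM-scaled, and TPM use merged exon length. Replicates differed by more than sampling noise. The code was tested on simulated data. DESeq2 1.42.0, limma-voom and the other alternatives are covered after the report. The genes and lists were chosen with earlier results of these data known. The text names the 7 genes, Scn9a, the list genes called in either arm (some items are not reported here), expressed relatives of each gene, and the 2 genes nearest to each tested one. Lnpep, Gsk3b, Nfat5, Otx2, the collagens and Pnma2 were named after their values were seen. Floors cover counting error only.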

Additional observations from a re-analysis of the deposited data

Results flagged for a closer look

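The response differed between the repressors for 3 genes of the lists, by the edgeR contrast of both changes (dCas9 minus zinc finger) over the 10 libraries. P2rx3 differed by -0.69, from a change of -0.10 with dCas9 and 0.59 with the zinc finger (adjusted p 0.0281). Ret differed by -0.42, from -0.11 and 0.31 (adjusted p 0.0261). Sgk1 differed by 0.52, from 0.01 with dCas9 and -0.50 with the zinc finger (adjusted p 0.0353). With limma-voom the adjusted p was 0.0436 for P2rx3, 0.0242 for Ret and 0.0795 for Sgk1, whose call was lost. Leaving out single libraries took each of the 3 calls away at least once, with adjusted p up to 0.285 for P2rx3, 0.298 for Ret and 0.462 for Sgk1. All 3 show the change in the zinc-finger arm, which has 2 libraries a group.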

How the results depend on the processing

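Scn9a fell in all settings run. No other direction among tested genes of the 7 turned, except the near-zero difference of Asic1, which was 0.0021 with limma-voom, 9.0e-04 with an exon length correction and -0.038 to 0.034 on leaving out single libraries. With dCas9, 6 genes were called, against 172 with no filter, 69 with DESeq2, 13 with a strand column, 29 with all 10 libraries in 1 fit, 262 with a replicate block, 2 with the length correction, 1 to 34 on leaving out single libraries and 14 without replicate 1 of both groups (added after the data were seen). None of the 7 genes was called in any of them. With the zinc finger, 609 genes were called, against 115 with DESeq2, 283 with a strand column, 348 with all 10 libraries, 569 with a replicate block and 201 to 787 on leaving out libraries. The count of the 7 genes called was 0 with DESeq2, 0 with a strand column and 0 to 1 on leaving out libraries, and 0 to 1 for the difference. The causes were not tested. The replicate numbers were not taken to pair the samples, since not every same-number correlation passed 0.1, although replicate 1 of both dCas9 groups shares the trace described above: same-number deviations correlated at 0.24, 0.16 and 0.04 with dCas9, dCas9-empty replicate 3 correlating better with dCas9-SCN9A replicate 2 (0.10), and at 0.07 with the zinc finger. Levels moved to 61.4 (strand column) and 53.6 TPM (longest transcript) for Dpysl2, 39.4 for P2rx3 (possibly with Ssrp1 reads) and 58.9 for Asic1 (strand column), by construction of those settings. Small uncalled dCas9 changes turned sign. Fgf11 was 0.011 with plain library size, 0.0044 with a filter at 1 CPM, 0.014 with a strand column and -0.11 to 0.19 leaving out libraries. Isl1 was -0.0027 with no filter, -0.040 with a strand column, -0.017 with the length correction and -0.074 to 0.064 leaving out libraries. P2rx4 ranged from -0.11 to 0.0031 and Sgk1 from -0.022 to 0.047 (-0.014 without replicate 1 of both groups). DESeq2 gave P2rx3 no adjusted p with dCas9. Of all values recomputed, 424 kept direction and call, 51 lost the call, 3 gained it, 29 moved and 20 reversed. Depth limits the 4 near-silent genes.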

Other observations

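Pnma2, which lies 42.5 kb from Dpysl2 on chromosome 14 and encodes a retrotransposon-derived, capsid-like neuronal protein, fell with the zinc finger while Dpysl2 was not called. It stood at 8.23 and 8.17 CPM in ZF-SCN9A libraries, against 17.7 and 20.8 CPM in mCherry libraries. Its log2 fold change was -1.23 ± 0.21 (edgeR adjusted p 4.51e-07), and it was called in all 14 alternative settings of that arm. In the dCas9 arm it stood at 18.5, 17.5 and 16.5 CPM in dCas9-SCN9A libraries, against 17.4, 15.8 and 19.2 CPM in dCas9-empty libraries, with an adjusted p of 0.995. The dCas9 change minus the zinc-finger change was 1.24 ± 0.21 (adjusted p 0.000654). The gene was picked after its values were seen, as a neighbour of a chosen gene.

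The plasmid entries, kept out of all tests, also gave a trace between groups. The mCherry entry had 9 reads in dCas9-SCN9A replicate 1 and 7 in dCas9-empty replicate 1, and 0 in the other 4 dCas9 libraries, the same 2 libraries that held the Nedd4l reads. It had 59 and 11 reads in ZF-SCN9A libraries, against 186301 and 216581 in mCherry libraries. The ZF entry had 246775 and 178465 reads in ZF-SCN9A libraries, against 35 and 14 in mCherry libraries. In unscaled reads, the dCCas9 entry had 176550, 183170 and 200749 in dCas9-SCN9A libraries, against 131446, 147989 and 155738 in dCas9-empty libraries. The dNCas9 entry had 54552, 56364 and 62672 in dCas9-SCN9A libraries, against 81844, 91766 and 87938 in dCas9-empty libraries. Whether the 9 and 7 reads and the Nedd4l reads share a source was not tested.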
